A study of Mus musculus with 47 samples.

Results

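Integrins are the receptors by which cells hold on to the extracellular matrix. The 10 genes described here, Itga3, Itga4, Itga5, Itga6, Itga7, Itga9, Itgav, Itgb1, Itgb3 and Itgb5, encode integrin subunits of myoblasts and myotubes, and they were taken by gene symbol from 45650 symbols in the 3 RNA-seq tables of the study. The rule names symbols and sets no threshold on values, but the genes were picked with earlier results of these data known. All 10 were found, 8 of them well expressed, and Itga4 and Itga9 at or near 0 in most libraries. The 47 libraries came from C2C12, a mouse myoblast cell line that withdraws from the cell cycle, fuses and forms contractile myotubes when serum is removed. C2C12 iMyoD1 is a polyclonal population carrying Halo-tagged MyoD1 alleles under a doxycycline (dox) responsive promoter beside its endogenous MyoD1, and C2C12 iCdh23 and C2C12 iMcam are the lines labelled as inducible for Cdh23 and Mcam. C2C12 iMyoD1 was sequenced with and without dox at 0 h, where cells were in growth medium and dox or vehicle had been present for 24 h, and at 24, 48 and 120 h of serum withdrawal, where dox was added as differentiation began. At 120 h the culture was also separated by trypsin and a 40 µm strainer into a flow-through called myoblast-enriched and a retained part called myotube-enriched. C2C12 iCdh23 and C2C12 iMcam were sequenced at 48 h of serum withdrawal with and without dox. This gave 16 groups of 3 libraries that the labels call biological replicates, except that the myoblast-enriched group with dox had 2, replicates 2 and 3.

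An integrin is a pair of 1 alpha and 1 beta subunit that spans the plasma membrane, binds matrix outside the cell and connects through talin, kindlin and other adaptors to actin inside it. The alpha subunit largely sets the ligand: Itga3, Itga6 and Itga7 pair with Itgb1 as laminin receptors, Itga5 with Itgb1 is the classical fibronectin receptor, Itgav pairs with several beta subunits to bind fibronectin, vitronectin and other ligands with an RGD motif, and Itga4 and Itga9 bind ligands such as VCAM1, fibronectin variants and osteopontin. In skeletal muscle the Itga7 and Itgb1 pair is the main laminin receptor of the fibre and sits at the costameres and myotendinous junctions, while Itgb1 is needed for myoblast fusion and for assembly of the sarcomere.

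The genes lie on 7 chromosomes of GRCm38. The laminin receptor subunits are Itga3 at chr11:95044474-95076801 (minus strand), Itga6 at chr2:71745616-71858416 and Itga7 at chr10:128933818-128958282 (both plus). The fibronectin and RGD receptor subunits are Itga5 at chr15:103344286-103366763 (minus) and Itgav at chr2:83724397-83806916 (plus), and the beta subunits are Itgb1 at chr8:128685654-128733200, Itgb3 at chr11:104608000-104670476 and Itgb5 at chr16:33829665-33949338 (all plus). Itga4 lies at chr2:79255426-79333123 and Itga9 at chr9:118606690-118901003 (both plus).

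Total estimated counts ranged from 15066338 to 50950674 per library, with a median of 22837926, and the values below are CPM, counts relative to library size, scaled with TMM factors over all libraries. The summed level of 14 myotube markers (myosin heavy chains, troponins, titin and others) was at most 24.0 CPM in the 12 libraries at 0 and 24 h, and stood between 17414 and 18731 CPM at 48 h and between 23173 and 27135 CPM at 120 h without dox in whole cultures. Dox libraries had lower sums, from 6902 to 7069 CPM at 48 h and from 15848 to 18216 CPM at 120 h. The fractions were less clearly separated. Myoblast-enriched libraries without dox held 7839.7, 13406 and 11306 CPM of myotube markers and myotube-enriched ones 19048, 23987 and 30855 CPM, whereas with dox the myotube-enriched library of replicate 3, at 7131 CPM, stood at the level of the 2 myoblast-enriched libraries (7482 and 7046 CPM) and far below replicates 1 and 2 (23771 and 33176 CPM). Markers of other cell types were low: 14 of 18 endothelial, immune, adipocyte, epithelial and Schwann or neural markers stayed under 1 CPM in every group. Myod1 itself was lower in the whole-culture libraries labelled +dox than without dox beyond 0 h (109.6 to 123.0 against 135.9 to 141.9 CPM at 24 h, 294 to 319 against 384 to 391 CPM at 48 h, and 80.9 to 96.7 against 228 to 302 CPM at 120 h), and since the sources used here do not say whether transgene reads count toward the gene, this checks nothing. Cdh23 was at 343 to 444 CPM in iCdh23 without dox and at 416 to 566 CPM with dox, groups that overlap, while in iMcam it was at 5.5 to 8.8 CPM without and 44.1 to 57.3 CPM with dox. Mcam was at 17.0 to 19.5 CPM without and 69.2 to 74.5 CPM with dox in iMcam, and at 4.7 to 7.6 and 45.7 to 54.5 CPM in iCdh23, so both genes were also higher with dox, without overlap, in the line not named for them. In bulk RNA, fewer cells of a type and less RNA of a gene per cell cannot be told apart, and this holds for each result below.

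Levels of different subunits were compared per transcript length, as TPM, and expressed as each subunit's share of the summed alpha or beta members. Itgb1 held most of the beta signal in 16 of 16 groups, with mean shares from 68.8 to 86.8%. Among the alpha members Itga7 led in 11 groups and Itga3 in 5. Itga3 led in both 0 h groups, at 24 h with dox, and in both the iCdh23 and the iMcam lines with dox, while Itga7 led in all other groups. These ranks are by group means: in iCdh23 with dox Itga3 and Itga5 were level within their spread (29.1% ± 3.2 and 28.0% ± 1.2), and Itga5 was ahead in replicates 2 and 3. In growth medium without dox Itga3 held 39.5% ± 0.5 (SD, n = 3) of the alpha TPM and Itga7 20.4% ± 0.7, and at 48 h without dox the values were 4.2% ± 0.2 and 69.8% ± 0.9. The alpha repertoire was thus led by a laminin receptor subunit at either end, with a different gene in front. At 24 h without dox Itga7 (29.1% ± 0.6) and Itga5 (29.1% ± 1.6) were level within their spread. With dox the Itga3 share was higher and the Itga7 share lower than without it at 24, 48 and 120 h in whole cultures: Itga3 stood at 27.5% against 16.8%, 17.3% against 4.2% and 6.8% against 1.2%, and Itga7 at 23.4% against 29.1%, 47.9% against 69.8% and 45.4% against 68.0%.

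**Figure D1:**
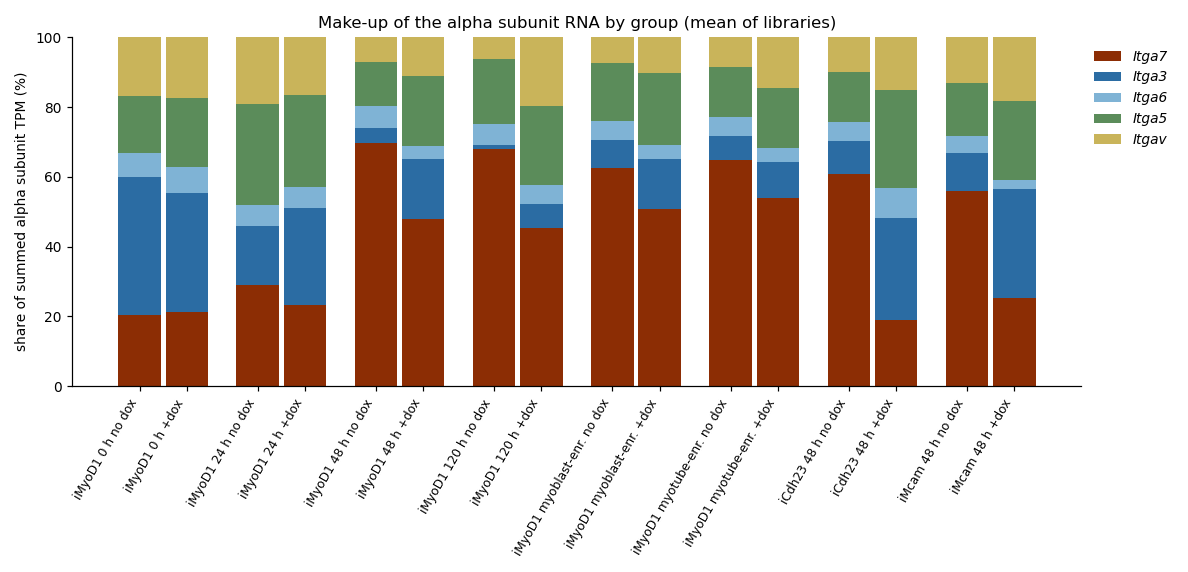
Share of the summed TPM of the 7 alpha members held by each alpha subunit, in percent, for the 16 groups (mean of the libraries of a group, stacked), with Itga4 and Itga9 not drawn because their shares are near 0. Itga7 fills most of the bars from 48 h on without dox, for example 69.8% at 48 h, and the mean share of Itga3 is larger with dox than without in each pair of groups except at 0 h (34.1% against 39.5%), with libraries that overlap in the myotube-enriched fraction.

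The course of differentiation without dox was compared step by step. A gene passed the test at an adjusted p under 0.05 by edgeR's quasi-likelihood test with Benjamini-Hochberg adjustment over all genes tested, and was called when it also differed by more than 2-fold. From growth medium to 24 h all 8 tested members fell, 5 of them by more than 2-fold, where 37.0% of all genes tested fell, 74.3% passed in either direction and 26.1% were called. The deepest falls were those of Itgb3, the beta subunit that pairs with Itgav in the vitronectin receptor, and of Itga3. Itgb3 went from 61.7, 63.1 and 56.7 CPM to 5.6, 5.7 and 6.4 CPM (log2 fold change -3.34, adjusted p 5.2e-13), and Itga3 from 399, 396 and 396 CPM to 55.2, 57.0 and 53.5 CPM (log2 fold change -2.83, adjusted p 1e-13). The libraries of the groups were far apart for both genes. Itga6 fell by 2.22, Itgav by 1.36 and Itga7 by 1.08 on the log2 scale, and Itga5, Itgb5 and Itgb1 by 0.75, 0.64 and 0.60. The median over the 8 members was -1.22, beside 0.01 over all genes tested. The 12 proliferation markers summed to 3526 to 3567 CPM in growth medium and 1165 to 1208 CPM at 24 h (10 of 12 called lower), and their part in these falls was not tested.

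From 24 to 48 h all 8 rose, 4 of them by more than 2-fold, where 38.4% of all genes rose, 76.8% passed in either direction and 30.4% were called. Itga7 rose most: it was at 78.5, 82.0 and 81.5 CPM at 24 h and at 1061, 1024 and 1041 CPM at 48 h (log2 fold change 3.74 ± 0.06 SE, adjusted p 8e-15). Itga6, which shares laminin binding with Itga7, went from 10.3, 9.6 and 10.9 to 80.5, 74.2 and 68.6 CPM (log2 fold change 2.90), and Itgb3 from 5.6, 5.7 and 6.4 to 26.0, 24.0 and 25.3 CPM (2.14). Itga5 rose by 1.27 on the same scale, and Itgav, Itgb5, Itgb1 and Itga3 by 0.94, 0.84, 0.53 and 0.46, the last not passing with all groups in 1 fit (adjusted p 0.21). Itgb3 and Itga3 therefore stayed below their growth medium levels at 48 h, while Itga7 stood above its own, with group means of 1042 and 172.7 CPM. The 48 and 120 h libraries carry a batch label that the 0 and 24 h libraries do not, and they lie in another table, so the step from 24 to 48 h and the batch cannot be told apart. The steps before and after it, and each dox comparison, stayed within 1 table. Over this step the summed myotube markers went from 19.6 to 24.0 CPM at 24 h to 17414 to 18731 CPM at 48 h. The myoblast identity markers summed to 378 to 406 CPM and then 2374 to 2575 CPM. The proliferation markers summed to 1165 to 1208 CPM and then 1911 to 1970 CPM. The part of these markers in the rises was not tested.

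From 48 to 120 h 6 of 8 passed and 1, Itga3, was called, where 67.1% of all genes passed and 29.8% were called. Itga3 fell further, from 73.5, 76.2 and 70.2 to 30.9, 23.7 and 16.5 CPM (log2 fold change -1.59 ± 0.19 SE, adjusted p 7.4e-05), its lowest group mean of all 16 groups. The separated fractions of the same time without dox lay above it, at 127.4, 95.6 and 98.5 CPM in the myotube-enriched and 154.0, 75.5 and 143.2 CPM in the myoblast-enriched fraction, so every whole-culture library was below every fraction library. These values come from separate tables and the fractions went through trypsin and a strainer, so table and handling cannot be told apart from this difference, which was not tested. Itga5 rose by 0.74 (adjusted p 0.00051) to its highest group mean, 336 CPM, and Itgb1 by 0.54 (adjusted p 0.0014) to its highest, 905 CPM. Smaller differences were those of Itgb3 (0.31, adjusted p 0.015), Itgav (0.27, adjusted p 0.026) and Itgb5 (-0.42, adjusted p 0.03). These 3 no longer passed when some libraries were left out: Itgb3 without 48 h replicate 2 or 3 (adjusted p 0.07 and 0.054), Itgav without 120 h replicate 2 or any of the 48 h libraries (0.052 to 0.095), and Itgb5 likewise (0.081 to 0.092). With all groups in 1 fit Itgb3 and Itgav did not pass (0.43 and 0.34). Itga6 (0.23, adjusted p 0.057) and Itga7 (0.18, adjusted p 0.37) did not pass, although Itga6 did without 120 h replicate 1 (0.27, adjusted p 0.02) and with protein-coding transcripts only (0.78, adjusted p 0.00088) and Itga7 without 120 h replicate 3 (0.36, adjusted p 0.013). Itga7 reached its highest group mean at 120 h, 1153 CPM, but its 3 libraries there, at 1509.6, 1102 and 848 CPM, lay on both sides of the 48 h values. The proliferation markers summed to 1911 to 1969.8 CPM at 48 h and 464 to 506 CPM at 120 h (12 of 12 called lower), and 4 of 5 myoblast identity markers passed lower. The only tested epithelial marker, the only tested Schwann or neural marker and 1 of 2 tested immune markers were called higher, with sums of at most 5.4 CPM for each of these lists at 120 h. The part of these markers was not tested.

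**Figure D2:**
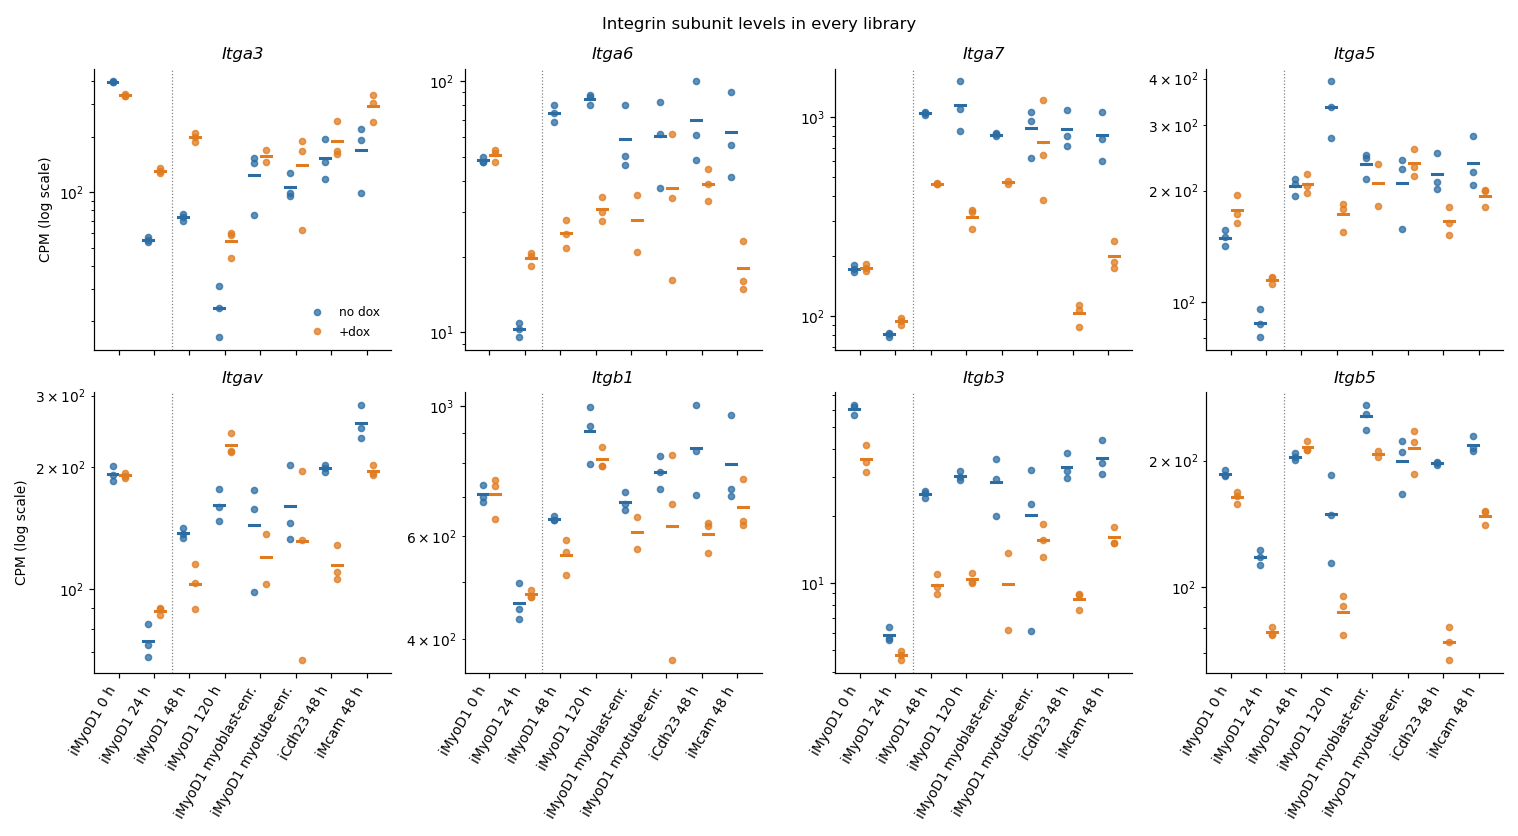
Level of the 8 well expressed integrin genes in every library (points, CPM on a log axis that differs between panels) for the 16 groups, with short lines at group means, no dox in blue and +dox in orange. The dotted line separates libraries without and with the batch label. Itga7 climbs to 1153 CPM on average at 120 h without dox from 80.7 CPM at 24 h, and Itga3 is highest in growth medium at 397 CPM.

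The spread of levels over the 16 groups differed between members. Among the well expressed members Itga3 had the widest range of group means, 16.8 times. It lay between 397 CPM at 0 h and 23.7 CPM at 120 h, both without dox. Itga7 followed at 14.3 times and Itgb3 at 12.7 times. Itgb1, the shared partner, had the narrowest, 1.96 times, between 461 CPM at 24 h and 905 CPM at 120 h without dox. When groups were put in order of their mean, 14 of 15 neighbouring pairs overlapped in their libraries for Itgb1, 13 for Itga5, 12 for Itga6 and Itgav, 11 for Itga7 and Itgb3, and 10 for Itga3 and Itgb5. Most neighbours in each order therefore did not differ beyond the spread of their libraries. The 24 h group without dox was lowest for Itga5, Itga6, Itga7, Itgav and Itgb1.

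The effect of dox in C2C12 iMyoD1 was compared within each time, the question being how the culture changes under dox, which was given to raise MyoD1 dosage. In growth medium 4 of 8 tested members passed and 0 were called, where 37.8% of all genes passed and 4.27% were called. Itgb3 was lower with dox, at 41.7, 31.5 and 35.1 CPM against 61.7, 63.1 and 56.7 CPM (log2 fold change -0.73 ± 0.09 SE, adjusted p 2.3e-05). Itga3 was lower, at 342, 331 and 331 CPM against 399, 396 and 396 CPM (-0.24, adjusted p 0.0015), and Itga5 slightly higher (0.25, adjusted p 0.0081, and 0.056 without the no dox library of replicate 3). Itgb5 fell by 0.17 (adjusted p 0.018), a difference that did not pass without dox replicate 2 or no dox replicate 1 or 2 (0.059 to 0.094). None of the 4 passed with all groups in 1 fit (adjusted p 0.13 for Itgb3, 0.72 for Itga3, 0.37 for Itga5 and 0.45 for Itgb5), with log2 fold changes of -0.74, -0.25, 0.24 and -0.18. The proliferation markers summed to 3018 to 3160 CPM with dox and 3526 to 3567 CPM without (8 of 12 passed, all lower), and the myoblast identity markers to 769 to 806 CPM and 629 to 649.5 CPM (2 of 5 passed higher and 1 lower). Their part was not tested.

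At 24 h 7 of 8 passed and 1, Itga3, was called, where 62.8% of all genes passed and 13.2% were called. Itga3 was at 134.7, 130.6 and 127.5 CPM with dox against 55.2, 57.0 and 53.5 CPM (log2 fold change 1.27 ± 0.05 SE, adjusted p 2.6e-09). The other laminin receptor subunits rose as well, Itga6 from 10.3, 9.6 and 10.9 to 20.6, 20.0 and 18.4 CPM (0.96 ± 0.09 SE, adjusted p 1.6e-06) and Itga7 from 78.5, 82.0 and 81.5 to 97.3, 94.4 and 89.5 CPM (0.24, adjusted p 0.0016). Groups did not overlap for any of the 3. The fold of Itga6 was just under 2 and passed 2 when replicate 3 of either group was left out or when protein-coding transcripts alone were counted. Itga5 (0.41, adjusted p 0.00011) and Itgav (0.28, adjusted p 0.0035) rose, and Itgb5 fell from between 113 and 123 to between 77.1 and 80.3 CPM (-0.56, adjusted p 2.2e-06). Itgb3 was lower by 0.29 (adjusted p 0.044), which did not pass in 5 of the 6 fits with 1 library left out (adjusted p 0.06 to 0.15). With all groups in 1 fit Itga7, Itgav and Itgb3 did not pass (adjusted p 0.55, 0.39 and 0.48). The myoblast identity markers summed to 442 to 448 CPM with dox and 378 to 406 CPM without (5 of 5 passed, 3 of them higher), and the proliferation markers to 1053 to 1094 CPM and 1165 to 1208 CPM (6 of 12 passed lower and 2 higher). Their part was not tested.

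At 48 h 6 of 8 passed and 4 were called, where 56.6% of all genes passed and 14.4% were called. Of the 4, 3 were lower with dox, as were 8.46% of all genes by more than 2-fold. Itga7 was at 462, 457 and 465 CPM with dox against 1061, 1024 and 1041 CPM (log2 fold change -1.18 ± 0.06 SE, adjusted p 1.3e-07). Itga6 was at 27.9, 24.7 and 21.6 CPM against 80.5, 74.2 and 68.6 CPM (-1.59 ± 0.10 SE, adjusted p 4e-07), and Itgb3 at 11.0, 8.9 and 9.6 CPM against 26.0, 24.0 and 25.3 CPM (-1.35 ± 0.10 SE, adjusted p 1.3e-06). Itga3 was higher, at 210.1, 198.6 and 186.3 CPM against 73.5, 76.2 and 70.2 CPM (1.43 ± 0.07 SE, adjusted p 7e-08). The laminin receptor subunits thus moved in opposite directions, with no overlap between groups for any of them. Itgav fell by 0.42 (adjusted p 0.0018) and Itgb1 by 0.21 (adjusted p 0.022, and 0.06 to 0.074 in 5 of the 6 fits with 1 library left out), while Itga5 (0.01) and Itgb5 (0.07) did not pass. With all groups in 1 fit Itgav and Itgb1 did not pass (adjusted p 0.13 and 0.36). The fall of Itgav was not seen per transcript length, at 46.9, 48.6 and 43.6 TPM with dox against 41.2, 42.6 and 44.1 TPM. Beside these values, the summed myotube markers of these libraries were 6902 to 7069 CPM with dox and 17414 to 18731 CPM without, and 12 proliferation markers summed to 671 to 701 CPM with dox and 1911 to 1969.8 CPM without. Their part in the integrin differences was not tested.

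At 120 h in whole cultures 7 of 8 passed and 4 were called, where 45.2% of all genes passed and 16.1% were called. These were Itga7, Itgb3, Itga6 and Itga3, called in the directions seen at 48 h. Itga7 was at 272, 339.9 and 333 CPM with dox against 1509.6, 1102 and 848 CPM (log2 fold change -1.88 ± 0.19 SE, adjusted p 6.6e-05). Itgb3 (10.2, 11.2 and 10.1 CPM against 31.9, 29.0 and 29.9 CPM, -1.54 ± 0.12 SE, adjusted p 1.4e-05) and Itga6 (34.6, 27.9 and 30.2 CPM against 80.1, 86.6 and 87.5 CPM, -1.46 ± 0.11 SE, adjusted p 1e-05) were lower too. Itga3 was at 44.2, 58.6 and 60.5 CPM against 30.9, 23.7 and 16.5 CPM (1.19 ± 0.22 SE, adjusted p 0.0018), with a fold under 2 once the no dox library of replicate 3 was left out. The fibronectin receptors parted: Itga5 fell by 0.97 (adjusted p 0.00035), from 393, 336 and 277 CPM to 155, 178 and 185 CPM, and Itgav rose by 0.48 (adjusted p 0.0028), from 147.7, 159.97 and 177 CPM to 242, 218 and 219 CPM. Itga5 was more than 2-fold lower without no dox replicate 3 or dox replicate 3. Itgb5 fell by 0.78 (adjusted p 0.004), and Itgb1 (-0.17, adjusted p 0.2) did not pass, but did without no dox replicate 1 (-0.26, adjusted p 0.028). With all groups in 1 fit Itgav did not pass (adjusted p 0.057). Beside these values, the myotube markers summed to 15848 to 18216 CPM with dox and 23173 to 27135 CPM without. The 12 proliferation markers summed to 605 to 682 CPM with dox and 464 to 506 CPM without (9 of 12 rose and 2 fell), in the other direction than at 48 h. The 4 immune markers summed to 3.2 to 6.1 CPM with dox and 1.5 to 2.0 CPM without, and the 4 epithelial markers to 0.23 to 1.27 CPM with dox and 2.44 to 4.47 CPM without (the 1 that was tested was called lower). The part of these markers in the integrin differences was not tested.

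**Figure D3:**
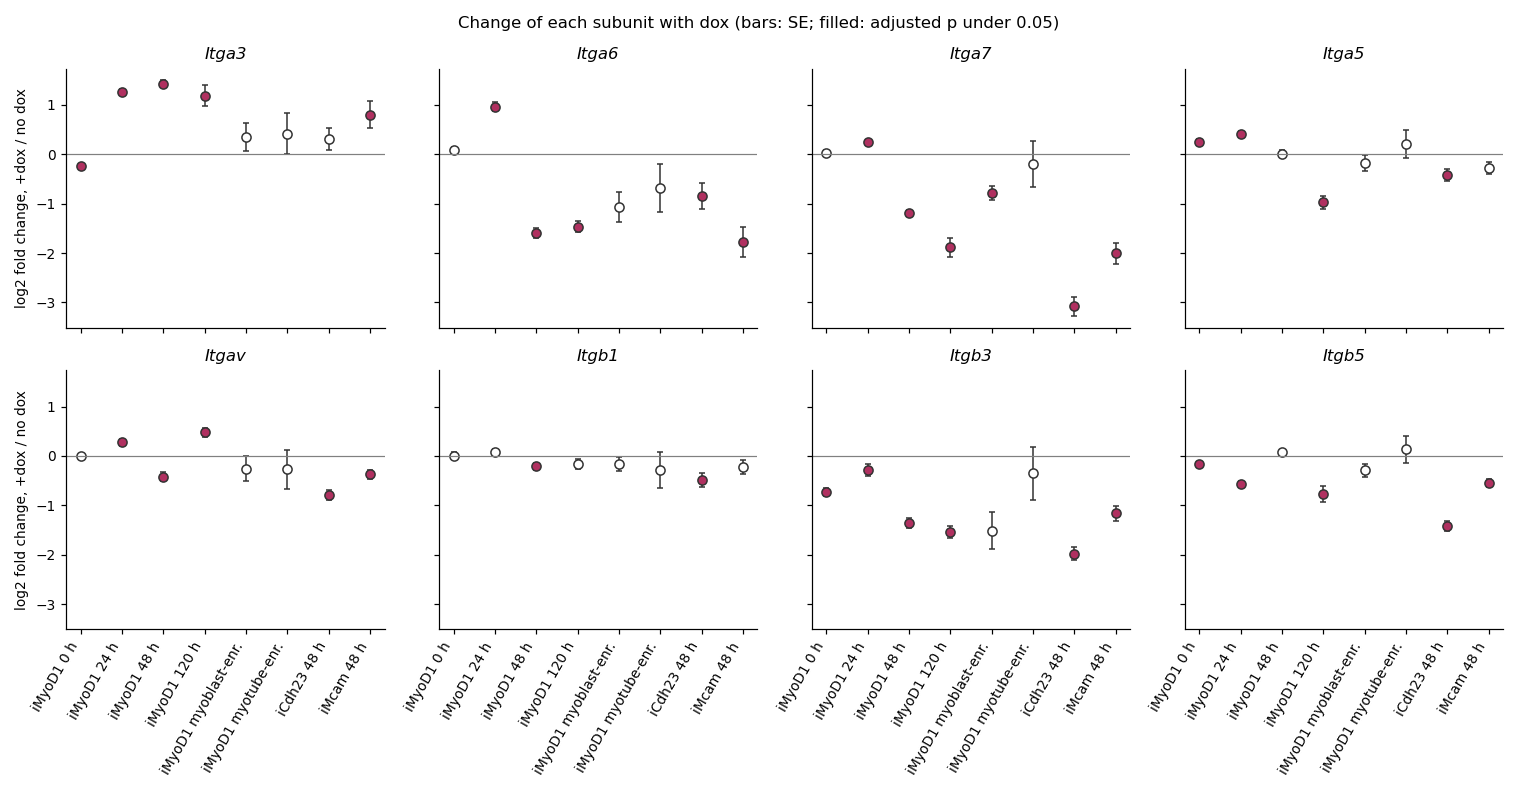
Log2 fold change with dox against no dox of the 8 well expressed members in the 8 dox comparisons, with error bars of 1 SE from edgeR's quasi-likelihood fit, and filled points where the adjusted p was under 0.05. Itga7, Itga6 and Itgb3 lie below 0 from 48 h on in whole cultures and in both the iCdh23 and iMcam lines (Itga7 -3.08 in iCdh23), and Itga3 lies above 0 at 24, 48 and 120 h.

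Whether the dox effect itself differed between times was tested as an interaction. Between 0 and 24 h the effect differed by more than 2-fold for 1 member, Itga3 (1.46 ± 0.07 SE on the log2 scale, adjusted p 1.3e-10), where 5.47% of all genes were called, and Itga6 followed with 0.83 (adjusted p 4.7e-06, and 0.34 with all groups in 1 fit). Itgb5 (-0.44, adjusted p 0.00014), Itgb3 (0.39, adjusted p 0.044) and Itgav (0.24, adjusted p 0.041) passed under 2-fold, but not with all groups in 1 fit (0.18, 0.72 and 0.76). With 1 library left out, Itgb3 did not pass in 9 of 12 fits (adjusted p 0.054 to 0.099) and Itgav in 10 of 12 (0.059 to 0.12). Between 24 and 48 h it was called for 3 members, where 13.2% of all genes were called. These were Itga6 (-2.55 ± 0.13 SE, adjusted p 8.8e-10), Itga7 (-1.43 ± 0.07 SE, adjusted p 9.9e-10) and Itgb3 (-1.07 ± 0.14 SE, adjusted p 2.3e-05), the last with a fold under 2 without the 48 h dox library of replicate 2 and not passing with all groups in 1 fit (-1.04, adjusted p 0.094). Itga6 and Itga7 were thus higher with dox at 24 h and lower with dox at 48 h. Itgb5 changed the other way, from lower with dox at 24 h to about level at 48 h (0.64, adjusted p 5.4e-06). Itgav (-0.70, adjusted p 0.00019), Itga5 (-0.40, adjusted p 0.0024) and Itgb1 (-0.29, adjusted p 0.019) passed under 2-fold, but not with all groups in 1 fit (0.12, 0.21 and 0.51). The lower Itgav level with dox at 48 h was not seen in TPM, as given above. The 24 and 48 h libraries differ in batch label, but each dox effect was taken within 1 batch.

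The fractions showed smaller differences with wider spread. Between myotube-enriched and myoblast-enriched libraries without dox none of 8 tested members passed, where 0.592% of all genes passed, 0.585% were called and 2251 genes had an unadjusted p under 0.05. These shares were unstable: 83 genes passed and 82 were called, with 1 library left out 0 to 249 and 0 to 233. Replicate numbers paired the samples here, and with the replicate as a block 676 genes passed and 480 were called, but 0 members. DESeq2 called 480 genes, and all groups in 1 fit 636. Itga7 was at 955, 619.5 and 1054 CPM in the myotube-enriched and 799, 830.1 and 818 CPM in the myoblast-enriched fraction (log2 fold change 0.11 ± 0.23 SE, adjusted p 0.83). The fractions overlapped for Itga7. Itgb5, at 222, 167 and 209 CPM against 258, 236 and 271 CPM, and Itgb3, at 32.3, 6.1 and 22.6 CPM against 36.0, 20.0 and 29.5 CPM, were lower in the myotube-enriched fraction on average without passing (-0.35, adjusted p 0.36, and -0.47, adjusted p 0.68). Itgb5, Itgb3 and Itga5 were lower and Itgb1 was higher in the myotube-enriched library of each of the 3 replicate pairs. Itgb5 passed with all groups in 1 fit (-0.36, adjusted p 0.039). With dox the same comparison gave 0 members and 0% of all genes by edgeR, with 182 genes at an unadjusted p under 0.05, 7 genes called by DESeq2, and 142 called with all groups in 1 fit.

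Dox within the myoblast-enriched fraction moved 1 of 8 members past the test, where 4.34% of all genes passed and 3.03% were called. These shares were unstable: of all genes 432 were called and 619 passed, with 1 library left out 0 to 518 and 0 to 788. Itga7 was at 461 and 478 CPM with dox against 799, 830.1 and 818 CPM (log2 fold change -0.79 ± 0.14 SE, adjusted p 0.032), and it did not pass without no dox replicate 3, dox replicate 2 or dox replicate 3 (adjusted p 0.14 to 0.27), or with all groups in 1 fit (0.077). Itgb3 (-1.51 ± 0.37 SE, adjusted p 0.067) and Itga6 (-1.07 ± 0.31 SE, adjusted p 0.099) had larger differences that did not pass, though both were called without no dox replicate 2 (adjusted p 0.024 and 0.046), with DESeq2 (0.0011 and 0.011) and with no filter on low counts (6.7e-07 and 3.6e-05), and Itgb3 also with all groups in 1 fit (0.008). In the myotube-enriched fraction 0 members and 0% of all genes passed by edgeR, with 79 genes at an unadjusted p under 0.05 and 2 called by DESeq2. There Itga7 ranged with dox from 381 CPM in replicate 3 through 644 CPM in replicate 1 to 1218 CPM in replicate 2, in the same order as the summed myotube markers of these libraries. Leaving out any library of the myotube-enriched dox comparison, replicate 3 with dox included, gave 0 members called. It also gave 0 of all genes called or passed, so this does not show what replicate 3 contributes. The interaction between the fractions was called for 0 members and 0% of all genes, with 217 genes at an unadjusted p under 0.05 and 2 called by DESeq2.

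In C2C12 iCdh23 and iMcam at 48 h, 0 of 9 tested members passed between the groups without dox, where 0.409% of all genes passed, 0.350% were called and 1511 had an unadjusted p under 0.05. The nearest was Itgav, at 203, 194 and 199 CPM in iCdh23 and 236, 249 and 285 CPM in iMcam (log2 fold change -0.38 ± 0.11 SE, adjusted p 0.27). The shares over all genes were unstable: 48 genes were called and 56 passed, with 1 library left out 8 to 32 and 8 to 36. Replicate numbers paired these samples, and with the replicate as a block 268 genes were called and 607 passed, but 0 members. DESeq2 called 166 genes. With dox in iCdh23 8 of 9 members fell and 4 were called, where 32.4% of all genes fell, 63.8% passed in either direction and 30.0% were called. Both counts include Itga4, which was near the lower limit of detection and is described below. Itga7 was at 113.7, 87.9 and 107.1 CPM with dox against 718, 797 and 1082 CPM (-3.08 ± 0.19 SE, adjusted p 1.4e-05), the largest fold in a dox comparison among members that passed the filter on low counts. Itgb3 was at 7.6, 8.9 and 8.9 CPM against 31.8, 29.6 and 38.5 CPM (-1.98 ± 0.14 SE, adjusted p 2.1e-05) and Itgb5 at 80.8, 67.1 and 74.3 CPM against 196, 198 and 198 CPM (-1.42 ± 0.10 SE, adjusted p 2e-05). None of these groups overlapped. Itga6 (-0.85, adjusted p 0.022), Itgav (-0.80, adjusted p 0.00033), Itgb1 (-0.49, adjusted p 0.018) and Itga5 (-0.43, adjusted p 0.017) fell by less than 2-fold, and Itga3 was the exception (0.32, adjusted p 0.24). Itga5, Itga6 and Itgb1 did not pass without 1 of the dox libraries (Itga5 without replicate 2 or 3, Itga6 without replicate 1 or 3, Itgb1 without replicate 1, adjusted p 0.061 to 0.08). In the same libraries the myotube markers summed to 49.7 to 169.9 CPM with dox against 6579.6 to 12889.5 CPM without, and the proliferation markers to 97.7 to 123.4 CPM against 1259 to 1526 CPM. The 5 myoblast identity markers summed to 362 to 440.4 CPM with dox and 1702 to 1899 CPM without (4 of 5 called lower). The part of these markers in these differences was not tested.

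With dox in iMcam 7 of 9 passed and 4 were called, where 49.0% of all genes passed and 16.8% were called. Itga4, near the lower limit of detection, is again in both counts. Itga7 was at 187, 174 and 237 CPM with dox against 600.5, 774 and 1061 CPM (log2 fold change -2.01 ± 0.22 SE, adjusted p 5e-04). Itga6 was at 14.9, 16 and 23.0 CPM against 41.5, 55.8 and 90.3 CPM (-1.77 ± 0.30 SE, adjusted p 0.0025), and Itgb3 at 15.2, 17.9 and 15.1 CPM against 31.1, 34.5 and 44.1 CPM (-1.17 ± 0.15 SE, adjusted p 9e-04). Itga7, Itga6 and Itgb3 had no overlap between groups. Itgb5 fell by 0.54 (adjusted p 0.0017) and Itgav by 0.37 (adjusted p 0.014, 0.068 without dox replicate 2, and 0.14 with all groups in 1 fit). Itga3 was higher, at 337, 305 and 240.3 CPM against 220.9, 190.8 and 99.5 CPM (0.81 ± 0.28 SE, adjusted p 0.046), which did not pass without any 1 of the 3 dox libraries or without no dox replicate 2 (adjusted p 0.051 to 0.13). Replicate numbers paired the samples of this comparison, and with the replicate as a block Itga5 (-0.26, adjusted p 0.039) and Itgb1 (-0.22, adjusted p 0.048) also passed, against 0.11 and 0.23 without it. The myotube markers summed to 627 to 2058 CPM with dox and 4764 to 12171 CPM without, and the proliferation markers to 167 to 248 CPM with dox and 1073 to 1329 CPM without (11 of 12 called lower). The myoblast identity markers summed to 502 to 766 CPM with dox and 1288 to 1957 CPM without (3 of 5 called lower). The part of these markers was not tested.

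The dox effects of the iCdh23 and iMcam lines were compared as an interaction, which called 1 of 9 members, where 6.49% of all genes were called. Itga7 fell more in iCdh23 (-1.05 ± 0.31 SE, adjusted p 0.05, just under the threshold), but without 1 library it passed in only 2 of 12 fits, with adjusted p from 0.061 to 0.12 in the rest, and it did not pass with RLE normalization (0.053) or all groups in 1 fit (0.057). Itgb5 fell more in iCdh23 by less than 2-fold (-0.86 ± 0.12 SE, adjusted p 0.0012), and Itgb3 as well (-0.79 ± 0.21 SE, adjusted p 0.036, not passing in 8 of 12 fits with 1 library left out or with all groups in 1 fit, adjusted p 0.34). Both lines shared a direction for Itga7, Itga6, Itgb3, Itgb5 and Itgav, each against its own no dox libraries. Itga6 fell less in iCdh23 by 0.95, which did not pass (adjusted p 0.2), but did with the replicate as a block (0.99, adjusted p 0.018). Replicate numbers paired the samples of iMcam but, by the rule used, not those of iCdh23.

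Itga4 and Itga9 were at the lower limit of detection. Itga4 had at most 13 counts in any iMyoD1 library and was tested in the iCdh23 and iMcam lines alone. It had 14, 19 and 33 counts without dox and 2, 3 and 13 with dox in iCdh23 (log2 fold change -2.16 ± 0.63 SE, adjusted p 0.018), and 13, 23 and 68 against 3, 5 and 7 counts in iMcam (-2.96 ± 0.64 SE, adjusted p 0.0073). In iCdh23 the call was lost without dox replicate 1 or 2 (adjusted p 0.064 and 0.068). In both lines Itga4 reached the filter on low counts through its no dox libraries. A gene that enters a test in this way can hardly be called higher, so these calls are no support for a fall. Itga9 had at most 7 counts in every group except at 120 h in whole cultures without dox, where it had 35, 21 and 9 counts, against 0 in each of the 3 libraries with dox and 2, 2 and 0 at 48 h without dox. It lay below the filter on low counts in each comparison, and without that filter both differences passed (adjusted p 0.00015 with dox at 120 h and 0.00085 from 48 to 120 h). The highest group mean of Itga9 was 1.02 CPM. Gm2415 and Gm10157 overlap Itga9 on the opposite strand and had means of 19.89 and 17.94 counts per library, and since the sources used here do not state whether counting used strand, reads of these genes and of Itga9 may not be told apart.

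Transcript values were available for the members with more than 1 annotated transcript in the tables. Itgb1 is known for a muscle form of its cytoplasmic tail, made by an extra exon near the 3′ end, and GENCODE vM21 lists a protein-coding fragment, Itgb1-204 (711 bases, against 3815 bases of the main transcript Itgb1-201), that carries an exon absent from Itgb1-201. This exon lies at chr8:128726983-128727063 on the plus strand of GRCm38 and has 81 bases, 72 of them coding (24 codons). It is shown because Itgb1-204 had 0 counts at 24 h and 225 to 341 counts at 48 h without dox, a step that cannot be told apart from batch. The line gives the last 30 bases of the exon before it, chr8:128726157-128726186, in lower case and the 24 codons of the extra exon in capitals.
Itgb1-204 tail: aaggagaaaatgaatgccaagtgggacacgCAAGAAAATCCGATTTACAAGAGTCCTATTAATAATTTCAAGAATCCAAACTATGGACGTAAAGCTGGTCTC
In Itgb1-201 the next exon is instead chr8:128732023-128733200, with 1178 bases of which 63 are coding.

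Itgb1-204 was chosen after its values were seen, since it held under 10% of the Itgb1 counts. It had 0 to 4.2 counts in the 6 libraries at 0 h and 0 in the 6 at 24 h. At 48 h without dox it had 275, 225 and 341 counts, or 2.27% ± 0.34 (SD, n = 3) of the gene's counts, and at 120 h 374, 458 and 465 counts, or 2.23% ± 0.05. Libraries before and after this step did not overlap. With dox the shares were 0.70% ± 0.11 at 48 h and 0.91% ± 0.05 at 120 h, lower than without dox in every library. In iCdh23 it had 129, 177 and 369.6 counts without dox and 0, 0 and 1.5 with dox, and in iMcam 77.5, 60.2 and 251 counts without and 6.7, 6.0 and 34.6 with dox. The myotube-enriched fraction without dox had the highest mean share, 4.08% ± 1.59, but its libraries (2.96, 3.38 and 5.90%) overlapped with the myoblast-enriched ones (0.94, 3.47 and 2.28%). The fragment lacks the 5′ part of the message, so these percentages understate the use of the exon and serve for comparison between groups only. In edgeR's test of each transcript against the others of its gene, Itgb1-204 passed from 24 to 48 h (log2 fold change 7.53 over the gene, adjusted p 3.989e-06, where 7.63% of all transcripts were called), across the batch boundary named above. It did not pass with dox at 48 h (-1.18, adjusted p 0.2081, 0.912% called) or between the fractions without dox (0.59, adjusted p 1, 0.202% called). On simulated counts this transcript test called transcripts of unchanged genes more often than its threshold states, so the counts per library carry these comparisons.

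**Figure D4:**
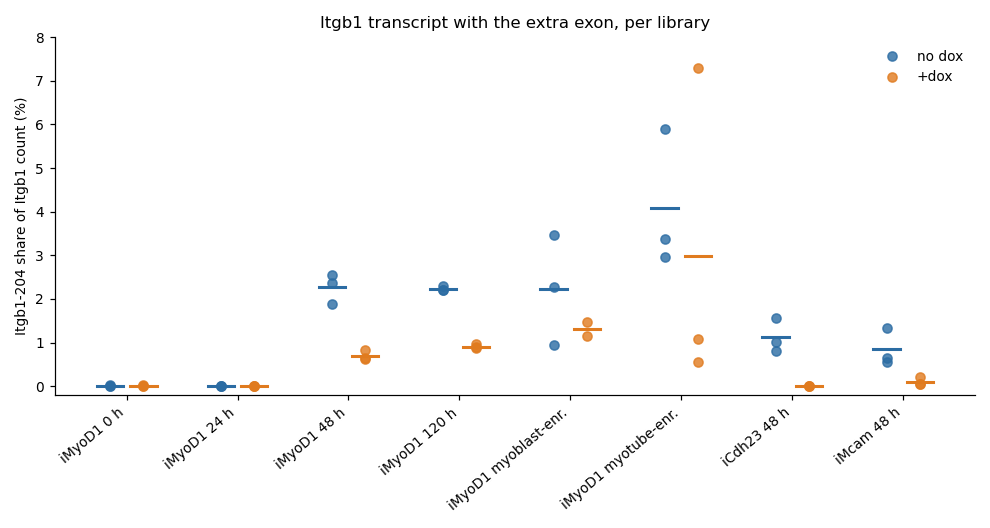
Share of the Itgb1 estimated count assigned to the transcript with the extra exon, Itgb1-204, in percent, for each library (points) and group mean (short lines), without (blue) and with dox (orange). It is 0 or nearly 0 at 0 and 24 h, 2.27% on average at 48 h without dox and 0.70% with dox, and the myotube-enriched libraries with dox spread from 0.55 to 7.30%.

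Among the other members, Itga5 and Itga7 had 1 transcript each in the tables. Itga6 was divided mainly between Itga6-201 and Itga6-203, with mean shares of 60.1% and 32.4% at 24 h and 45.2% and 52.9% at 48 h without dox, and 34.8% and 62.3% at 48 h with dox. The transcript test was read for Itga3, Itga6 and Itgb1 only. Of their transcripts, Itga3-201, Itga6-201, Itga6-203 and Itgb1-201 held at least 10% of the gene's counts summed over a compared group. None of these was called in the 3 transcript comparisons. Itga3-202 did not reach that share, although its mean share per library at 48 h with dox was 11.7%. The transcripts of Itgav, Itgb3 and Itgb5 were not compared here. The split of Itga3 between Itga3-201 and Itga3-202 went different ways in replicates of the same group: the myotube-enriched libraries with dox had 2441, 12.6 and 174 counts for Itga3-202 and 0, 1153 and 6489.8 for Itga3-201. The myoblast-enriched libraries with dox had 1966 and 0 for Itga3-202 and 1016 and 5195 for Itga3-201. At 120 h without dox whole cultures had 449, 0 and 237 for Itga3-201. No statement on Itga3 transcripts is drawn from these counts. Replicate 1 of the myotube-enriched libraries with dox also had 0 counts of Itga6-201.

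MyoD1 binds the E-box, CANNTG, and prefers CAGCTG. Promoters from RefSeq (GRCm38.p6, the 250 bases before each annotated start) were searched on both strands, and both motifs read the same on either strand, with CAGCTG included in CANNTG. Of 32851 promoters 66.2% held CANNTG and 13.0% held CAGCTG. Itga3 is shown because it was the 1 member called at 24 h with dox, and Itgb5 because it fell there and holds CAGCTG. The window before the upstream Itga3 start, chr11:95076715-95076964 on the minus strand, has 1 CANNTG at base -195 from the start, and the Itgb5 window, chr16:33829415-33829664 on the plus strand, has 3, of which 1 is CAGCTG. Both are printed 5′ to 3′ with E-boxes in capitals.
Itga3: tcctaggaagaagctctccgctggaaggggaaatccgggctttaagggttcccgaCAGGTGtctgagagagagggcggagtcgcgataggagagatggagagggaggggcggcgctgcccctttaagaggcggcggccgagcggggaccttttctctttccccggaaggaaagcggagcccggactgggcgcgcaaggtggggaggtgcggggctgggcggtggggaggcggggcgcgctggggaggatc
Itgb5: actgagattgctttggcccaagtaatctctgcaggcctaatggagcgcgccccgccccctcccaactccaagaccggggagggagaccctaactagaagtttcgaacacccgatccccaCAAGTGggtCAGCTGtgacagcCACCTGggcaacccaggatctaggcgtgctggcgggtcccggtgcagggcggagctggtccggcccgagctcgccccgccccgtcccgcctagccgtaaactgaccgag
A second RefSeq start of Itga3, with the window chr11:95069199-95069448, has 1 CANNTG at base -221. The windows of Itga4, Itga5 and Itga9 held 1, 1 and 3 CANNTG, of which 1 in Itga4 and 1 in Itga9 was CAGCTG, and those of Itgav and Itgb1 held 0. The Itga9 window, chr9:118711442-118711691, lies inside the gene as placed above, so it stands before an internal start. Itga6, Itga7 and Itgb3 had no entry. A match in this window is a match of letters only, and binding was not measured in the RNA-seq tables.

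Genes around the integrins were counted in lists by role. Of 26 extracellular ligands, 2 of 23 tested were called higher and 8 lower with dox at 48 h, where 8.46% of all genes were called lower. At 120 h 0 of 24 were higher and 9 lower (8.80% of all genes lower), in iCdh23 3 of 24 were higher and 15 lower (17.0% of all genes lower), and in iMcam 3 of 24 were higher and 11 lower (9.85% of all genes lower). The fall included Postn (periostin, log2 fold change -2.42) and Col1a1 (collagen I, -2.25) at 48 h, and Spp1 (osteopontin, -2.46) and Postn (-1.92) at 120 h. Lamb2, a laminin chain of the muscle basement membrane, and Mfge8, an RGD ligand, were the ones called higher at 48 h (1.07 and 1.06), and they were higher in iCdh23 (1.89 and 1.56) and iMcam (1.41 and 1.29) too. Over the course without dox, 17 of 24 tested ligands were called lower and 1 higher from 0 to 24 h, where 16.7% of all genes were called lower, and 18 were called higher and 2 lower from 24 to 48 h, where 19.3% were called higher, Col1a1 going by -4.94 and then by 7.31. The medians of the ligand list in these 2 steps were -2.01 and 2.13, beside 0.01 and -0.02 over all genes.

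Of 30 adaptors and focal adhesion proteins 0 of 28 tested were called with dox at 48 h, where 14.4% of all genes were called. At 120 h 1 of 28 was higher and 7 were lower with dox, where 8.80% of all genes were called lower, among them Tln1 (talin, which activates integrins through the beta tail, -1.59) and Tns2 (tensin, -1.41), while Itgb1bp2, a muscle protein that binds the Itgb1 tail, was higher (1.17). In iCdh23 6 of 28 were lower and 0 higher, near the 17.0% of all genes called lower, with Itgb1bp2 (-5.60) and the focal adhesion protein Zyx (-1.82) at the front, and in iMcam 1 of 28 was lower, where 9.85% of all genes were. From 24 to 48 h without dox 7 of 28 were higher and 1 lower, where 19.3% of all genes were called higher, led by Itgb1bp2 (9.69) and Tns1 (2.04). The median over this list was -0.04 with dox at 48 h and -0.26 at 120 h, beside 0.01 and 0.00 over all genes.

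Of 17 other integrin subunits 9 to 12 were tested in a comparison. Itga11, a collagen receptor subunit, and Itgb6 were lower with dox at 48 h (-1.46 and -1.66) and in iCdh23 (-2.98 and -6.97), and Itga11 was lower in the myoblast-enriched fraction (-1.23). In iMcam they were lower as well (-1.98 and -2.49). Itga1 was higher with dox at 24 h (1.22), when 3 of 9 were called higher and 0 lower, where 13.2% of all genes were called in either direction. At 48 h 3 of 10 were higher and 3 lower (14.4% of all genes called), at 120 h 3 of 9 were higher and 1 lower (16.1%), in iCdh23 2 of 11 were higher and 6 lower (30.0%), and in iMcam 1 of 10 was higher and 3 lower (16.8%). The list's median was -0.77 at 48 h and 0.70 at 120 h. Of 10 associated membrane proteins 1 was called lower with dox at 48 h, where 8.46% of all genes were called lower, 3 at 120 h (8.80%), 5 in iCdh23 (17.0%) and 2 in iMcam (9.85%), and none was called higher. Slc3a2, the CD98 heavy chain that binds beta tails, was lower with dox at 48 h (-1.26) and at 120 h (-2.81), and Cav3, the caveolin of muscle, was lower at 120 h (-1.11), in iCdh23 (-5.84) and in iMcam (-2.71).

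The genes most like each member in pattern were taken as the 2 with the highest Pearson correlation of log2(CPM + 1) over the 16 group means, a description in which groups share lines, batches and time. For Itga7 these were Jph2, a junctophilin of the muscle membrane system (r = 0.993), and Spry4 (0.977). Itga3 was nearest to Pias3 (0.975) and Zfp395 (0.965), Itgb5 to Fhl2 (0.965) and Gadd45g (0.956), Itga5 to Cdk18 (0.967) and Adamts2 (0.933), and Itgb3 to Rasa3 (0.956) and C1qtnf1 (0.953). Itgb1 was nearest to Abr (0.956) and Ppfibp1 (0.945), and Itgav to Plekhh2 (0.928) and Tenm3 (0.923). Itga6 had the weakest neighbours, Parvb (0.870), an adaptor of the integrin-linked kinase complex, and Tnfaip3 (0.868). Between members the closest pairs over the same 16 groups were Itgav with Itgb1 (0.867) and Itga5 with Itga7 (0.858), and Itga3 with Itga7 gave -0.341.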

How the data were processed

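PolyA RNA-seq of 47 C2C12 libraries was analysed. The authors quantified reads with nf-core/rnaseq 3.18.0 and salmon, per the labels on mm10, and deposited 3 tables of estimated counts per transcript, not scaled to depth or length. All 47 columns were matched to samples by name. Whether the MyoD1 transgene was in the quantified reference is not given in the sources used here. GENCODE vM21 on GRCm38 matched 98.72% of 109617 transcripts and gave positions and lengths. Counts were summed per symbol and rounded. Reads carried no molecular identifiers, and p-values measure the spread between libraries called biological replicates.

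Each comparison used its own groups in edgeR 4.0.16 (R 4.3.3): filterByExpr, TMM and glmQLFTest, with Benjamini-Hochberg adjusted p over all genes tested. SEs came from the F statistic. Transcripts were tested with diffSpliceDGE. The fits were tested on simulated data. Replicate numbers paired the samples, with every correlation of deviations from the group means over 0.1, for dox in iMcam (0.328 to 0.482), the fractions without dox (0.184 to 0.501) and iCdh23 against iMcam without dox (0.123 to 0.561). Alternatives were DESeq2 1.42.0, RLE normalization, no filter on low counts, all groups in 1 fit, protein-coding transcripts only, a replicate block and leaving out each library.

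Members and gene lists were chosen with earlier results of these data known. From each list, up to 2 genes per direction were eligible to be named, the called genes of largest fold whose mean reached 5 CPM and whose groups did not overlap.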

Additional observations from a re-analysis of the deposited data

Results flagged for a closer look

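The dox effect on 4 members differed by more than 2-fold between conditions by the interaction test of edgeR. Smaller differences that passed are given with the comparisons above. For Itga3 the effect was larger at 24 h than at 0 h by 1.46 on the log2 scale (SE 0.07, adjusted p 1.3e-10). Between 24 and 48 h the effect went down by 2.55 for Itga6 (log2 difference -2.55, SE 0.13, adjusted p 8.8e-10), by 1.43 for Itga7 (-1.43, SE 0.07, adjusted p 9.9e-10) and by 1.07 for Itgb3 (-1.07, SE 0.14, adjusted p 2.3e-05). The Itgb3 difference was under 2-fold without the 48 h dox library of replicate 2 and did not pass with all groups in 1 fit (-1.04, adjusted p 0.094). The effect on Itga7 was more negative in iCdh23 than in iMcam (-1.05, SE 0.31, adjusted p 0.05, just under the threshold), which rests on few libraries, since it passed in 2 of 12 fits with 1 library left out, and it did not pass with RLE normalization or all groups in 1 fit (adjusted p 0.053 and 0.057).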

How the results depend on the processing

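No difference that passed changed direction under any alternative run. The number of members called with dox at 24 h was 2 in place of 1 with protein-coding transcripts only, and 1 to 2 with 1 library left out. With dox in the myoblast-enriched fraction it was 2 with DESeq2, 2 with no filter on low counts, 1 with all groups in 1 fit, and 0 to 2 with 1 library left out, in place of 0. From 48 to 120 h it was 3 with DESeq2, 3 with no filter and 3 with all groups in 1 fit in place of 1, the added genes being Itga4 and Itga9, and 1 to 2 with 1 library left out. For iCdh23 against iMcam it was 0 with RLE normalization and 0 with all groups in 1 fit in place of 1, and 0 to 1 with 1 library left out. Over 148 values of members, 25 lost and 2 gained significance with all groups in 1 fit and at most 1 was lost and 7 gained under each other setting except leaving out libraries, where 77 of 1062 were lost and 9 gained. Replicate numbers did not pair most comparisons by the rule used. There the replicate block gave, with dox in the myoblast-enriched fraction, 2 members called (Itga6 and Itgb3) and 4 passed in place of 1 (of all genes 1108 called and 4051 passed, in place of 432 and 619), Itga3 among them (0.60, adjusted p 0.028). That comparison had only 2 pairs, whose deviations correlated at 0.361 and 0.522. With dox in iCdh23, where the correlations were 0.0878 to 0.218, 9 members passed with the block in place of 8, the added one being Itga3 (0.32, adjusted p 0.03). With dox at 24 h 6 passed in place of 7. In the 3 paired comparisons the block changed no result of a member beyond those given for iMcam. Counting by CPM in place of TPM put Itga7 ahead in 10 of 16 groups. The low counts of Itga4 and Itga9 limit what can be read from them. The cause of these changes was not tested.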
